A study of Mus musculus with 6 samples.

Results

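The genes described here are 10 members of the Wnt signalling system: 7 secreted antagonists (Wif1, Frzb, Dkk2, Dkk3, Sfrp1, Sfrp2 and Sfrp4), the feedback gene Axin2, and the ligands Wnt5a and Wnt11. They were taken by symbol from a table of 24411 genes, all 10 were found, and all 10 passed the filter on low counts. The genes were selected on role and on their measured CPM and fold changes between the genotypes in these same libraries, so their genotype differences are given as a description, without a test. Transcripts of the Achilles tendon were measured by RNA-seq of total RNA in mice of the C57BL/6 strain, 18 weeks old. Wild type (WT) mice gave 3 libraries and Scx-Cre/Piezo1 GOF mice gave the other 3. The latter genotype is a gain-of-function (GOF) allele of the mechanically gated cation channel gene Piezo1 combined with a Cre recombinase driven from Scx, a transcription factor gene of tendon cells. The labels do not state whether the WT mice carried the Cre or the uninduced allele, nor whether each library came from its own animal, so a p-value here reflects the variation among these 6 libraries, part of which may be technical.

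Wnt ligands are secreted lipid-modified proteins that bind Frizzled receptors together with the co-receptors Lrp5 and Lrp6. In the branch that runs through beta-catenin, this binding stops the destruction complex, of which Axin proteins are the scaffold, and beta-catenin then activates target genes with the TCF and LEF factors. Secreted antagonists act before the receptor: Wif1 and the Sfrp proteins, including Frzb (also called sFRP3), bind Wnt ligands, while Dickkopf proteins such as Dkk2 bind Lrp5 and Lrp6. In the skeleton the pathway is best known for promoting bone formation and for setting the balance between cartilage and bone.

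Promoters are shown for the 3 antagonists whose levels differed most between the genotypes and for Axin2, a textbook beta-catenin target, because these genes had different values in the same libraries. Each is a RefSeq window of the GRCm38.p6 build from 250 bases before to 50 after a transcript start of the gene, read 5′ to 3′ on the strand of the gene. For Sfrp2 and Axin2 this start is also the first base of the GENCODE gene given below. The RefSeq gene begins further upstream for both, at 83765750 for Sfrp2 and at 108917828 for Axin2, so these windows do not cover every start. For Wif1 the GENCODE gene begins 44 bases upstream of the start used, and for Frzb 229 bases upstream of it. Capitals mark the letters CTTTGA (the core of the TCF and LEF site), CANNTG (the E-box, which Scx and other basic helix-loop-helix factors bind) and GGAATG (the core of the TEAD site), each searched on both strands.
Wif1 promoter (chr10:121033754-121034053, plus strand): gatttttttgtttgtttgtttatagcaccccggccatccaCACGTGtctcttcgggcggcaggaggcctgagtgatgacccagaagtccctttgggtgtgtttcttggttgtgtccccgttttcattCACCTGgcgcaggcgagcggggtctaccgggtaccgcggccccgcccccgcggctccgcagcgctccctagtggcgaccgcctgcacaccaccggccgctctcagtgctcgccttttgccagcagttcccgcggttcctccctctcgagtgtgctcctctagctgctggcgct
Frzb promoter (chr2:80447347-80447646, minus strand): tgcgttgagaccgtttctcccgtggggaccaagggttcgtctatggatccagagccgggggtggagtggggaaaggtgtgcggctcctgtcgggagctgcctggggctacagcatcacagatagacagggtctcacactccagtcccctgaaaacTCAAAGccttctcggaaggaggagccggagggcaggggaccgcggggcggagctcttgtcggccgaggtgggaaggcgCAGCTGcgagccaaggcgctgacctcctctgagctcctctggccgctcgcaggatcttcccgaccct
Sfrp2 promoter (chr3:83766071-83766370, plus strand): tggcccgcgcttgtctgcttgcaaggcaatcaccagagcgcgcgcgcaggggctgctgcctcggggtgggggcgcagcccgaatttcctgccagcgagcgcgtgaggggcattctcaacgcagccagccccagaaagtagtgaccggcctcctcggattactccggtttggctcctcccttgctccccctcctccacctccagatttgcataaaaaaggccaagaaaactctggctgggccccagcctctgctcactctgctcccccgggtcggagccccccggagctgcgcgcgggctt
Axin2 promoter (chr11:108920099-108920398, plus strand): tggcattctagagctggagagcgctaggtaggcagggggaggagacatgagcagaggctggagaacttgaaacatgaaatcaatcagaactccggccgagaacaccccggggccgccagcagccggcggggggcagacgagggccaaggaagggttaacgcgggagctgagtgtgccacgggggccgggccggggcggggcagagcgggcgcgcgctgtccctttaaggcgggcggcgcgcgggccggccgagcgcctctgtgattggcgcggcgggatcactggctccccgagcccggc

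CTTTGA was present once in the Frzb window, as its reverse complement, 95 bases before the RefSeq start, and was not found in the windows of Wif1, Sfrp2 or Axin2. CANNTG was present at 2 positions in the Wif1 window, starting 210 and 123 bases before the start, and at 1 position in the Frzb window, 17 bases before it. Both matches in the Frzb window lie within the longer GENCODE gene. None of the 4 windows held GGAATG. Among all 32851 windows of the same length, 16.0% held CTTTGA, 72.3% held CANNTG and 14.7% held GGAATG. Windows were found for 6 of the 10 genes, the other two being Dkk2, which held none of the 3 motifs, and Wnt11, which had windows at 2 starts, one with CTTTGA and one with CANNTG. The G and C content was 63.0% for Wif1, 64.7% for Frzb, 66.0% for Sfrp2 and 70.0% for Axin2, against a median of 52.7% over all windows. The letters of a motif in a window are a match and not a measured binding site.

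Total counts lay between 8131527 and 17180856 per library, and with 3 libraries a group the number of libraries limits precision. Levels are CPM, a gene's counts relative to the library size after TMM scaling (trimmed mean of M-values), and a fold change is the log2 ratio of Piezo1 GOF to WT with its standard error (SE) from edgeR's quasi-likelihood fit. Piezo1 was at 121 ± 21.1 CPM in WT and at 153 ± 24.7 CPM in Piezo1 GOF (SD, n = 3 each), which checks no label, since such an allele alters the channel protein. Scx was at 14.2 to 17.2 CPM in WT and at 45.1 to 77.9 CPM in Piezo1 GOF (edgeR adjusted p = 0.0572), though its reads may be shared with Bop1, which spans it on the other strand. All 10 tenocyte markers were detected in every library, and their summed level was 4999 to 14668 CPM in WT and 28533 to 49988 CPM in Piezo1 GOF. Macrophage markers (11 genes) summed to 181 to 281 CPM and 665 to 822 CPM, bone markers (8 genes) to 91.3 to 408 CPM and 1716 to 3227 CPM, cartilage markers (11 genes) to 673 to 3772 CPM and 7508 to 21338 CPM, and fibroblast and sheath markers (7 genes) to 627 to 1165 CPM and 2224 to 4043 CPM, WT first. Chad made up 69.1% to 98.2% of the cartilage sum, and the other 10 cartilage genes summed to 208 to 225 CPM in WT and 299 to 385 CPM in Piezo1 GOF. Of the 9 cartilage genes tested, 4 were higher in Piezo1 GOF without overlap and 1, Sox6, was lower. Over all 13466 genes tested, 13.6% were higher and 12.1% lower without overlap. Prg4 made up 42.9% to 83.3% of the fibroblast and sheath sum, and the other 6 genes summed to 358 to 585 CPM and 676 to 731 CPM. Of these 7 genes, 5 were higher without overlap, beside the same 13.6% of all genes. Spp1 made up 44.4% to 70.8% of the bone sum, and the other 7 bone genes summed to 38.8 to 207 CPM in WT and 502 to 1794 CPM in Piezo1 GOF. Of the 6 bone genes tested, 5 were higher without overlap, beside 13.6% of all genes, and 1, Phex, had a negative fold change. The cartilage genes Col9a1 and Matn1 and the bone genes Bglap, Dmp1 and Phex were at 0 in at least 1 library. Skeletal muscle markers (15 genes) took 4.45% to 6.65% of counts in WT and 1.20% to 3.44% in Piezo1 GOF. Of these 15 genes, 14 had negative fold changes and 1 a positive one, and 3 were lower without overlap, beside 12.1% of all genes. The marker sums and the muscle share moved with the genotype, so they moved with each gene below that differed between the groups. Their part in those differences was not tested. In bulk tissue, fewer cells of a type and less RNA per cell cannot be told apart. WT replicate 1 stood apart, with 1136 CPM summed over 5 Schwann cell markers against 13.1 to 61.1 CPM in the other 5 libraries, and fold changes without it are given beside each of the 10 genes. Of 22 other Wnt pathway genes named below, leaving it out moved 4 by more than 1.5 times (Igfbp4, Sostdc1, Ndp and Wisp2), and their values without it are given.

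Of the 7 antagonists, 5, namely Wif1, Frzb, Dkk2, Dkk3 and Sfrp2, had all 3 Piezo1 GOF libraries above all 3 WT libraries. The other 2, Sfrp1 and Sfrp4, and Axin2, Wnt5a and Wnt11 had overlapping groups. The groups did not overlap, with Piezo1 GOF higher, for 5 of the 10 genes and for 13.6% of the 13466 genes tested. Because the genes were picked with this contrast known, nothing is read from this count. The median log2 fold change of the 10 genes was 0.71, between -0.38 and 2.99, beside 0.00 over all genes tested.

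**Figure D1:**
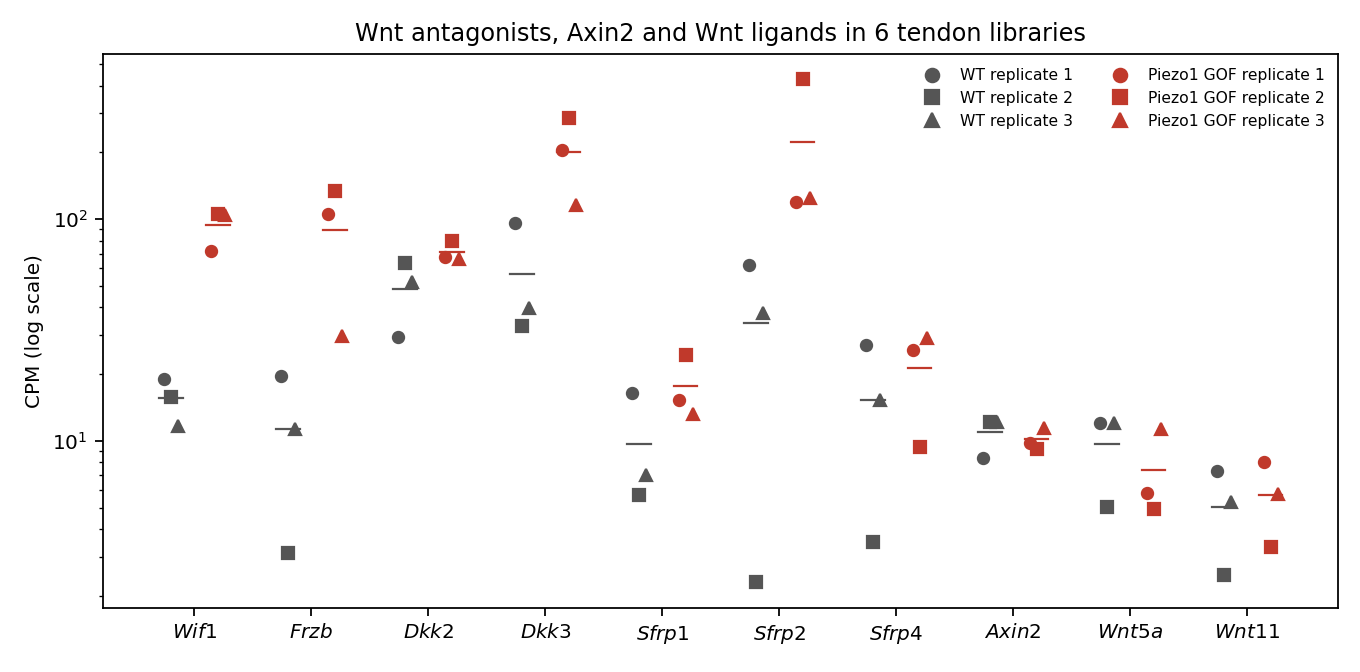
CPM on a log axis for the 10 genes in each of the 6 libraries (grey, WT; red, Piezo1 GOF; symbols, replicate numbers), with a horizontal line at each group mean. Wif1 is at 11.7 to 19.1 CPM in WT and 71.5 to 106 CPM in Piezo1 GOF, while Axin2 lies between 8.38 and 12.2 CPM in all 6 libraries.

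Wif1 encodes Wnt inhibitory factor 1, a secreted protein that binds Wnt ligands through its WIF domain. It was at 19.1, 15.8 and 11.7 CPM in WT replicates 1 to 3 and at 71.5, 106 and 104 CPM in Piezo1 GOF replicates 1 to 3. The spread within each genotype was small, the highest library being 1.64 times the lowest in WT and 1.48 times in Piezo1 GOF. The log2 fold change was 2.59 ± 0.27 (SE), the smallest SE of the 10 genes. Leaving out 1 library at a time kept it between 2.42 (without WT replicate 3) and 2.78 (without WT replicate 1). Wif1 (ENSMUSG00000020218.11) lies on the plus strand of chromosome 10 at 121033960 to 121100650 of mm10, and no other annotated gene overlaps its span, introns included.

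Frzb and Sfrp2 had fold changes as large as that of Wif1 with far wider spread. Frzb, a Sfrp protein known from articular cartilage, was at 19.7, 3.13 and 11.3 CPM in WT and at 105, 134 and 29.6 CPM in Piezo1 GOF. The groups did not overlap, with Piezo1 GOF replicate 3 and WT replicate 1 closest to each other. The log2 fold change was 2.99 ± 0.70 and lay between 2.52 (without WT replicate 2) and 3.68 (without WT replicate 1). Frzb (ENSMUSG00000027004.3) occupies 80411970 to 80447625 of chromosome 2, minus strand.

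Sfrp2, a secreted Frizzled-related protein made by many fibroblasts, was at 62.1, 2.30 and 37.7 CPM in WT and at 119, 427 and 124 CPM in Piezo1 GOF. WT replicate 2, which rests on 36 counts of Sfrp2, was 27.0 times below WT replicate 1, and Piezo1 GOF replicate 2 stood 3.59 times above replicate 1. The log2 fold change of 2.72 ± 0.95 had the largest SE of the 10 genes, and it ran from 1.87 without Piezo1 GOF replicate 2 to 3.52 without WT replicate 1. Sfrp2 (ENSMUSG00000027996.13; chromosome 3, plus strand, 83766321 to 83774316) shares 347 exon bases with an annotated antisense gene. Whether strand was used in counting is not given in the sources used here, so reads of such a pair may be shared.

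Of the 2 Dickkopf genes, Dkk3 differed more than Dkk2. Dkk3, the divergent member of the family, was at 96.6, 33.0 and 39.6 CPM in WT and at 204, 285 and 116 CPM in Piezo1 GOF. Its log2 fold change was 1.84 ± 0.47, and leaving out 1 library gave 1.53 (Piezo1 GOF replicate 2) to 2.49 (WT replicate 1). Dkk2, which binds Lrp5 and Lrp6 and can act as an antagonist or, in some settings, as a weak agonist, was at 29.5, 63.7 and 51.9 CPM in WT and at 67.5, 79.8 and 66.3 CPM in Piezo1 GOF. Its groups did not overlap, but the lowest Piezo1 GOF library was close to the highest WT library, and the log2 fold change was 0.56 ± 0.28 (0.32 without WT replicate 1, 0.80 without WT replicate 2). Among the WT libraries, Dkk2 alone of the 7 antagonists was highest in replicate 2. Dkk3 (ENSMUSG00000030772.6) spans 112116017 to 112159057 on the minus strand of chromosome 7, and Dkk2 (ENSMUSG00000028031.6) 132085292 to 132180304 on the plus strand of chromosome 3.

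Sfrp1 and Sfrp4, the remaining ligand-binding antagonists, overlapped between the genotypes. Sfrp1 was at 16.4, 5.68 and 7.01 CPM in WT and at 15.3, 24.5 and 13.2 CPM in Piezo1 GOF (log2 ratio 0.87 ± 0.43). WT replicate 1 lay above 2 of the 3 Piezo1 GOF libraries, and without it the fold change was 1.50. Sfrp4 was at 27.1, 3.51 and 15.3 CPM in WT and at 25.7, 9.43 and 29.0 CPM in Piezo1 GOF (0.50 ± 0.65). Its value ran from 0.01 without WT replicate 2 to 1.24 without WT replicate 1, so its size rested on which WT library was kept. Sfrp1 (ENSMUSG00000031548.7) lies on the plus strand of chromosome 8 at 23411502 to 23449632 and Sfrp4 (ENSMUSG00000021319.7) on the plus strand of chromosome 13 at 19623104 to 19632994.

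**Figure D2:**
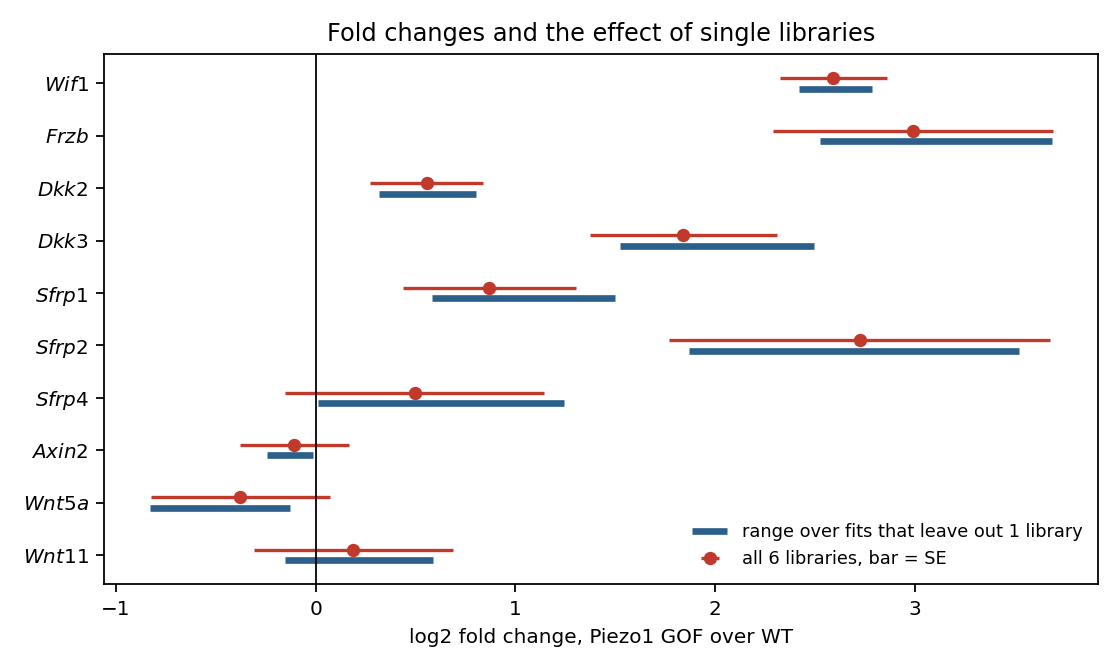
Log2 fold change of each gene, Piezo1 GOF over WT, with all 6 libraries (red point, bar = SE) and the range over the 6 fits that each leave out 1 library (blue bar). The range of Wif1 runs from 2.42 to 2.78, that of Sfrp2 from 1.87 to 3.52, and that of Wnt11 crosses 0.

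Axin2, a scaffold of the beta-catenin destruction complex whose transcription beta-catenin itself induces, was at 8.38, 12.2 and 12.2 CPM in WT and at 9.75, 9.23 and 11.5 CPM in Piezo1 GOF. All 3 Piezo1 GOF libraries lay within the WT range, and the log2 fold change was -0.11 ± 0.27, between -0.24 (without WT replicate 1) and -0.01 when 1 library was left out. An interval of 1 SE on either side therefore held 0, and the data show no direction for Axin2. Axin2 (ENSMUSG00000000142.15) lies on the plus strand of chromosome 11 at 108920349 to 108950783 and shares 209 exon bases with an annotated antisense gene.

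The ligands Wnt5a and Wnt11, which signal mostly without beta-catenin, were low and overlapped between the genotypes. Wnt5a was at 12.0, 5.05 and 12.0 CPM in WT and at 5.85, 4.92 and 11.3 CPM in Piezo1 GOF (log2 ratio -0.38 ± 0.45), and each genotype held both low and high libraries. Leaving out WT replicate 1 gave -0.16, and the values without 1 library ran from -0.83 to -0.13. Wnt11 was at 7.30, 2.49 and 5.32 CPM in WT and at 8.06, 3.31 and 5.78 CPM in Piezo1 GOF (0.19 ± 0.50). Leaving out WT replicate 2 gave -0.15 and leaving out WT replicate 1 gave 0.59, so it had no stable sign. Wnt5a (ENSMUSG00000021994.15; chromosome 14, plus strand, 28504750 to 28527448) shares 358 exon bases with an annotated antisense gene, and Wnt11 (ENSMUSG00000015957.12; chromosome 7, plus strand, 98835112 to 98855195) shares 364 with a pseudogene on the other strand.

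Levels of different genes were compared as CPM per kilobase of exon. In WT, Dkk3 was at 16.8 ± 10.4, Sfrp2 at 15.8 ± 14.0 and Dkk2 at 13.1 ± 4.68 CPM per kilobase (SD, n = 3) and their ranges overlapped. Wif1 followed at 6.40 ± 1.54, then Sfrp4 at 3.66 ± 2.82, Frzb at 3.51 ± 2.55, Sfrp1 at 2.22 ± 1.34, Axin2 at 1.99 ± 0.402, Wnt5a at 1.24 ± 0.514 and Wnt11 at 1.22 ± 0.585 CPM per kilobase. The ranges of neighbours in this order overlapped except for Dkk2 and Wif1, and with the longest transcript as length Axin2 stood above Sfrp1, at 2.57 CPM per kilobase. In Piezo1 GOF the order was led by Sfrp2 at 104 ± 82.0 and Dkk3 at 60.0 ± 25.2, with Wif1 at 38.6 ± 7.92, Frzb at 27.6 ± 16.6 and Dkk2 at 19.2 ± 2.03 CPM per kilobase.

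The 7 antagonists together summed to 89.7, 37.7 and 56.9 CPM per kilobase in WT and to 206, 398 and 172 in Piezo1 GOF, a ratio of means of 4.21, and without Sfrp2 the ratio was 3.39. The groups did not overlap in this sum. Composition varied among libraries, and the shares overlapped between the genotypes for every antagonist but Sfrp1. Dkk2 held 8.88%, 45.6% and 24.7% of the sum in WT and 8.85%, 5.42% and 10.4% in Piezo1 GOF. Sfrp2 held 32.1%, 2.83% and 30.8% in WT and 26.9%, 49.9% and 33.5% in Piezo1 GOF, so in WT replicate 2 the pool was mostly Dkk2 and Dkk3, and the share of Sfrp2 was largest in Piezo1 GOF replicate 2. The share of Sfrp1 was 2.82% to 4.19% in WT and 1.41% to 1.76% in Piezo1 GOF, without overlap, although its level overlapped. The sum, its ratio and these shares describe genes picked for their differences and carry no test. Other extracellular antagonists are not in the sum. Among them, Igfbp4 was at 20.8 CPM per kilobase in WT and 41.2 in Piezo1 GOF. Sfrp5 was at 10.7, mostly from WT replicate 1, and at 3.13.

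**Figure D3:**
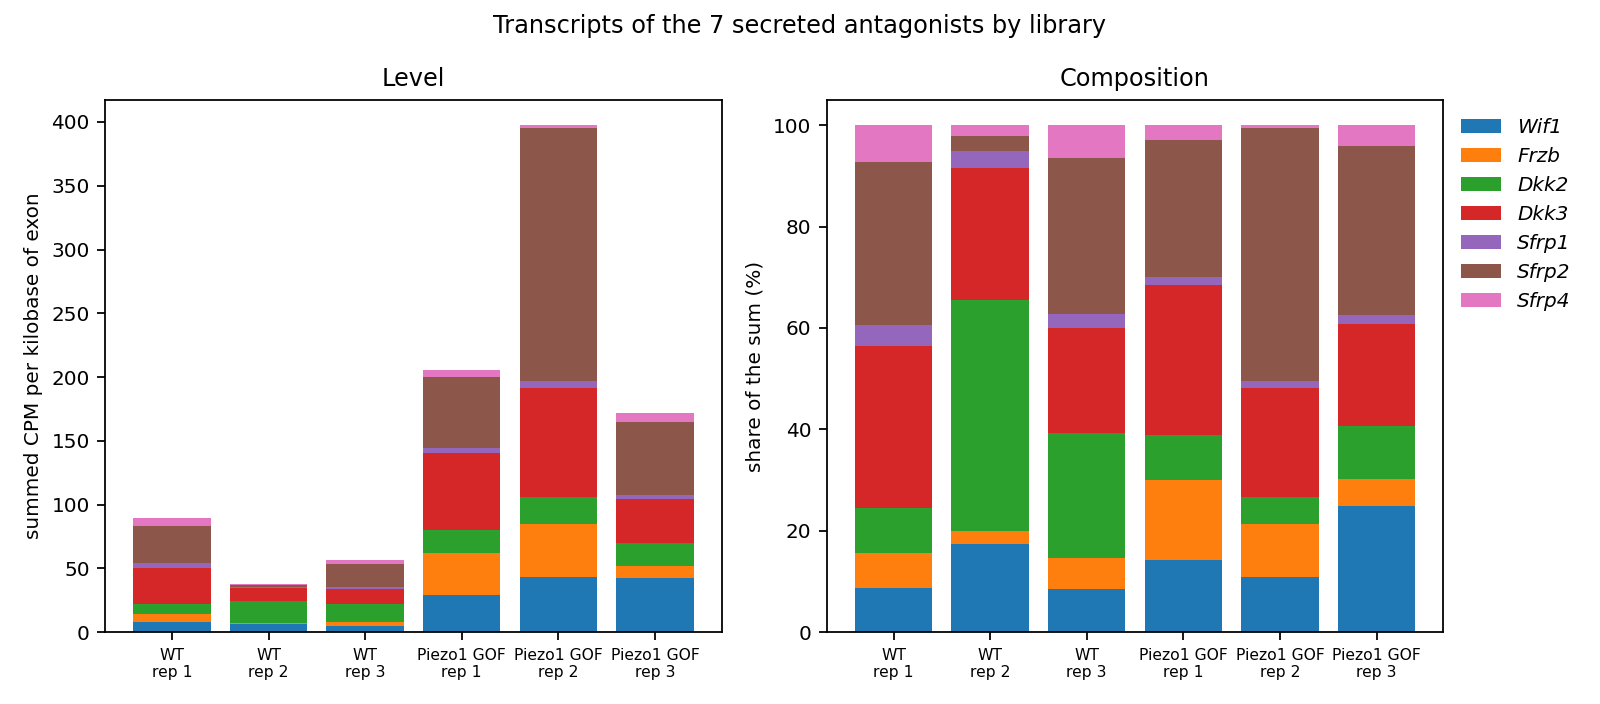
Stacked bars of CPM per kilobase of exon for the 7 antagonists in each library (left) and their share of the sum in percent (right). The sum is 37.7 to 89.7 in WT and 172 to 398 in Piezo1 GOF, and Sfrp2 takes 49.9% of it in Piezo1 GOF replicate 2.

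Single libraries ordered the genes within each genotype in a shared way. WT replicate 2, with the largest skeletal muscle share of the 6 (6.65%), was the lowest WT library for 7 of the 10 genes, 5 of them antagonists. Piezo1 GOF replicate 2, with the smallest muscle share (1.20%), was the highest Piezo1 GOF library for 6 of the 7 antagonists, and the lowest for Sfrp4, Axin2, Wnt5a and Wnt11. Taking the 15 muscle genes out before scaling left the fold changes at 2.59 for Wif1, 2.99 for Frzb, 2.72 for Sfrp2 and 1.84 for Dkk3. That step changes only the scaling and does not remove muscle RNA as a share of the tissue.

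The levels were also divided by the summed CPM of the 10 tenocyte markers in the same library, a step chosen after the data were seen. The fold changes of all 10 tenocyte markers were positive (median 1.92). At an unadjusted edgeR p under 0.05, 10 of 10 were higher, against 10.2% of all genes tested, while 0 passed the adjustment over all genes. Per 1000 CPM of these markers, Wif1 was at 1.30, 3.17 and 1.09 in WT and at 2.51, 2.11 and 3.23 in Piezo1 GOF, and its groups overlapped. The overlap came from WT replicate 2 alone, which had the lowest tenocyte marker sum (4999 CPM). Wif1 in WT replicates 1 and 3 lay below every Piezo1 GOF library. Frzb was at 1.34, 0.626 and 1.06 in WT and at 3.68, 2.67 and 0.918 in Piezo1 GOF, and Sfrp2 at 4.23, 0.46 and 3.54 and at 4.17, 8.55 and 3.85, both with overlap. Dkk3 was at 6.58, 6.59 and 3.72 in WT and at 7.15, 5.70 and 3.60 in Piezo1 GOF, nearly the same range. For 0 of the 10 genes was every Piezo1 GOF library above every WT library on this scale, and for 4 (Sfrp1, Axin2, Wnt5a and Wnt11) every one was below. Axin2 was at 0.571, 2.44 and 1.15 in WT and at 0.342, 0.185 and 0.357 in Piezo1 GOF. The 5 separations seen in CPM were absent when levels were set against tenocyte transcripts. The denominator was higher in every Piezo1 GOF library, so a gene with equal CPM in both genotypes is lower on this scale. A gene that rose by less than the denominator also loses a separation seen in CPM. How many of all genes separate on this scale was not counted, so nothing is read from the 4 that were lower. Nor is anything read from the absence of the 5 separations. This ratio changes with its denominator, which itself differed between the genotypes.

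**Figure D4:**
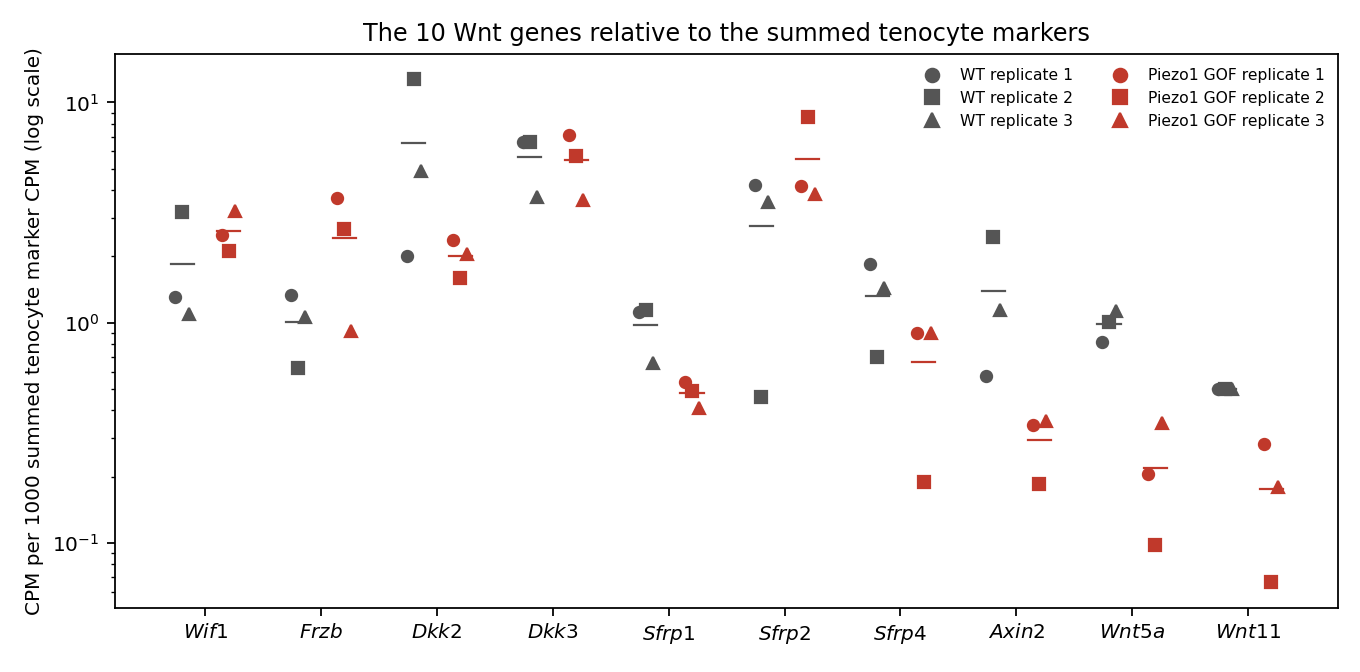
CPM of each gene per 1000 summed CPM of the 10 tenocyte markers, on a log axis, in each of the 6 libraries (grey, WT; red, Piezo1 GOF; lines, group means). Groups overlap for 6 genes, and Sfrp1, Axin2, Wnt5a and Wnt11 are lower in every Piezo1 GOF library.

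The rest of the pathway was described from 8 lists of 119 genes, of which 89 were tested. These lists, like the 10 genes, were chosen with earlier results of these data known, and they leave out the 10. Their values are therefore a description and not an independent comparison for the 10. By the quasi-likelihood test of edgeR, with p-values adjusted after Benjamini and Hochberg over all 13466 genes and a threshold of 0.05, 0 of the 89 rose and 0 fell, against 0.0149% and 0% of all genes tested. At an unadjusted p under 0.05, 9 were higher in Piezo1 GOF and 6 were lower, against 10.2% and 9.59% of all genes tested. DESeq2 called 3 higher and 3 lower of 96, beside 511 and 371 of all 14754 genes it tested. The exact test of edgeR called 3 and 2 of 89, beside 452 and 237 of all 13466 genes. With limma voom 0 and 0 of 89 passed, beside 97 and 19 of all 13466 genes. The median log2 fold change was 0.01 over the 89 genes, with 45 positive and 44 negative, beside 0.00 over all genes. Without WT replicate 1, 1 of 92 tested pathway genes passed, the norrin gene Ndp, beside 182 higher and 46 lower of all 13837 genes tested. At an unadjusted p under 0.05, 19 pathway genes were higher and 9 lower in this fit. The share of all genes at that threshold was not counted for this fit, so nothing is read from these counts.

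Among the ligands, the 2 described above were not unusual in level. In WT the 19 Wnt ligand genes were led by Wnt9a at 3.05 ± 0.384 and Wnt5b at 2.04 ± 0.702 CPM per kilobase, with Wnt5a in place 4 and Wnt11 in place 6, and 4 ligands had a count of 0 in all 6 libraries. Wnt6 stood in place 3 because of WT replicate 1, with 3.72 CPM per kilobase there against 0.204 and 0.103 in WT replicates 2 and 3. Of the 17 other ligands, 4 had enough counts to be tested and 0 passed. Wnt5b had a log2 fold change of 0.79 ± 0.43 (edgeR adjusted p = 0.329) and Wnt2b of -0.85 ± 0.51 (edgeR adjusted p = 0.378). Wnt4 was at -1.29 ± 0.88 (edgeR adjusted p = 0.437) and at 0.31 without WT replicate 2.

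Of 13 other extracellular antagonists, 6 were tested and 0 passed. The largest difference for its error was in Trabd2b, which encodes Tiki2, a membrane protease that inactivates Wnt proteins, at 31.1 ± 3.03 CPM in WT and at 64.6 ± 13.7 CPM in Piezo1 GOF without overlap (edgeR adjusted p = 0.0994; log2 fold change 1.05 ± 0.22; DESeq2 adjusted p = 0.00592). Igfbp4, an IGF-binding protein that also inhibits Wnt signalling, was at 0.99 ± 0.46 (edgeR adjusted p = 0.268) and at 1.69 without WT replicate 1. Sostdc1, a BMP and Wnt antagonist, was at -2.13 ± 1.32 (edgeR adjusted p = 0.387), a value set by 28.2 CPM in WT replicate 1, without which it was 1.75. The bone antagonist Sost and the classical antagonist Dkk1 had too few counts to be tested.

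Of 7 genes of ligand secretion and agonists, 5 were tested. Ndp encodes norrin, a non-Wnt ligand of Frizzled 4, and was at 2.47, 0.447 and 0.792 CPM in WT and at 6.11, 10.7 and 4.67 CPM in Piezo1 GOF. Its groups did not overlap, at a log2 fold change of 2.56 ± 0.67 (edgeR adjusted p = 0.128; adjusted p = 0.00699 by DESeq2). Without WT replicate 1 the log2 fold change was 3.58 (edgeR adjusted p = 0.0418). Rspo3, an R-spondin that amplifies Wnt signals, was at -0.95 ± 0.46 (edgeR adjusted p = 0.282), and Wls, the carrier that brings Wnt proteins to the cell surface, at 0.46 ± 0.26 (edgeR adjusted p = 0.346).

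Of 24 receptors and co-receptors, 22 were tested, 13 with positive and 9 with negative fold changes and a median of 0.14. Ror1, a receptor tyrosine kinase for Wnt5a, was at 7.87 ± 2.03 CPM in WT and at 3.05 ± 0.776 CPM in Piezo1 GOF without overlap (edgeR adjusted p = 0.145; log2 fold change -1.36 ± 0.38; DESeq2 adjusted p = 0.0413). Kremen1, a receptor for Dickkopf proteins, was at 160 ± 50.7 and 72.1 ± 29.3 CPM (-1.15 ± 0.36; edgeR adjusted p = 0.168; DESeq2 adjusted p = 0.0363). Fzd8, a Frizzled receptor, was at 13.4 ± 3.04 and 23.6 ± 4.16 CPM (0.82 ± 0.26; edgeR adjusted p = 0.168). The call on Ror1 and Kremen1 thus depended on the tool. The only tested gene of receptor turnover, the ubiquitin ligase gene Znrf3, was at 19.4 ± 1.56 and 18.0 ± 4.66 CPM (edgeR adjusted p = 0.834).

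All 25 genes of the beta-catenin machinery were tested, and 18 had negative and 7 positive values, with a median of -0.20 and 0 past the test. Tcf7l2, the TCF factor of many tissues, was at 33.2 ± 13.1 CPM in WT and at 66.1 ± 22.8 CPM in Piezo1 GOF (edgeR adjusted p = 0.184; log2 fold change 0.99 ± 0.34). The kinase gene Gsk3a was at -0.82 ± 0.35 (edgeR adjusted p = 0.241) and Amer1, a membrane recruiter of the destruction complex, at -0.57 ± 0.25 (edgeR adjusted p = 0.259).

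Beta-catenin target genes gave no common direction. Of 12, 7 were tested, 5 with positive and 2 with negative values and a median of 0.08. Tnfrsf19, a receptor gene known as TROY, was at 37.2, 45.2 and 35.4 CPM in WT and at 18.6, 9.83 and 20.1 CPM in Piezo1 GOF. Its groups did not overlap (edgeR adjusted p = 0.104; log2 fold change -1.28 ± 0.29; DESeq2 adjusted p = 0.00704). Nkd2, an inhibitor of Dishevelled, was at 34.0 ± 8.54 and 38.8 ± 6.19 CPM (edgeR adjusted p = 0.687), and Wisp2, a matricellular protein gene, at 40.0 ± 34.5 and 77.8 ± 55.2 CPM (log2 fold change 0.96; edgeR adjusted p = 0.433). Without WT replicate 1 the log2 fold change of Wisp2 was 1.96. The targets Lef1, Tcf7 and Sp5 had too few counts to be tested.

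Among 19 genes of planar polarity and of other Wnt effectors, all tested, 11 had positive and 8 negative values. Daam2, a formin that links Dishevelled to the cytoskeleton, was at 95.4, 27.6 and 81.1 CPM in WT and at 176, 187 and 161 CPM in Piezo1 GOF (edgeR adjusted p = 0.158; log2 fold change 1.36 ± 0.40; DESeq2 adjusted p = 0.0206). Its 3 Piezo1 GOF libraries were close together and above all WT libraries. The calcium-dependent kinase gene Camk2g was at -0.64 ± 0.21 (edgeR adjusted p = 0.178) and the calcineurin target Nfatc4 at 0.58 ± 0.22 (edgeR adjusted p = 0.210).

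**Figure D5:**
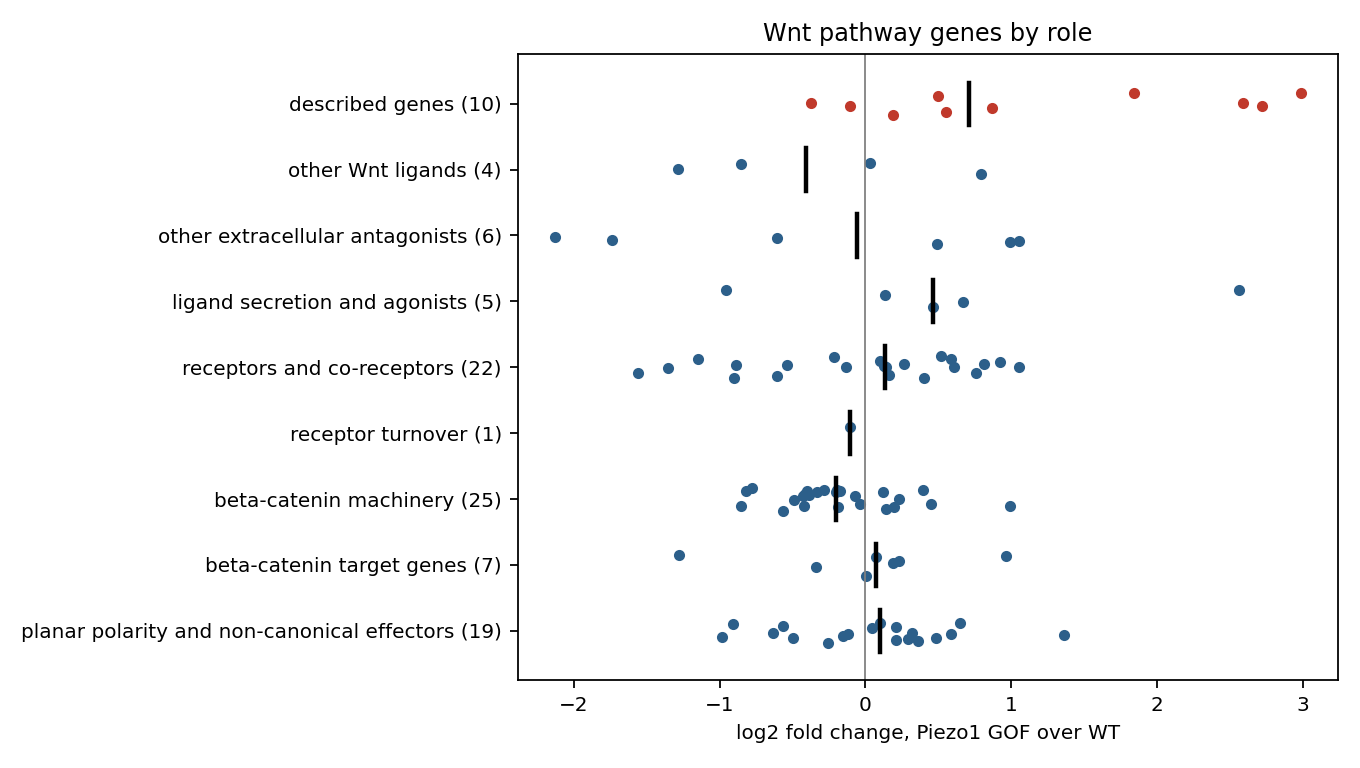
Log2 fold change, Piezo1 GOF over WT, of the 10 genes described (red) and of the 89 other tested Wnt pathway genes by role (blue), with the number of genes in brackets and a black bar at each median. The medians of the other lists lie between -0.41 and 0.46, and the 10 genes were picked with these values known.

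The genes whose levels followed Wif1 most closely over the 6 libraries were Car5b (r = 0.995), Birc3 (0.995), Dram1 (0.987), Itgbl1 (0.986) and C1qa (0.986), by Pearson's r of log2 CPM among 10635 genes. Car5b encodes a mitochondrial carbonic anhydrase, Birc3 an inhibitor of apoptosis, Dram1 a lysosomal membrane protein and C1qa a chain of complement C1q made by macrophages. C1qa was at 7.41, 7.92 and 5.77 CPM in WT and at 19.8, 21.1 and 27.8 CPM in Piezo1 GOF. None of the 5 is among the 10 genes. Of the 10635 genes, 76 had an r over 0.95. With 6 libraries in 2 separated groups, r also reflects the difference between the groups, so no link between genes is read from it.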

How the data were processed

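RNA-seq of total RNA from the Achilles tendon gave 6 libraries, 3 WT and 3 Piezo1 GOF, grouped by the genotype in their titles. The values in the deposited table are expected counts, made by the authors per gene and left unscaled (7.80% to 8.88% of a library's values are fractional). The submitters' processing notes name the mm10 build and the tools bcl2fastq, STAR, RSEM and edgeR. Their versions, the annotation and the strand setting are not given in the sources read. Per the labels' protocols, libraries were made with a RamDA-seq kit, whose priming is not limited to poly(A) tails.

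Counts were rounded, filtered with filterByExpr (minimum count 10, leaving 13466 genes), scaled by TMM and compared between genotypes by the two-sided quasi-likelihood test of edgeR, with Benjamini-Hochberg adjustment over all tested genes and a threshold of 0.05. The chain was tested on simulated counts. Libraries of a genotype differed by a chi-square per degree of freedom of 38.7 to 133, so none was a copy. Coordinates, overlaps with other genes and exon lengths came from GENCODE mouse release 21 on mm10, and promoters from RefSeq (GRCm38.p6). The 10 genes and the lists were chosen with earlier results of these data known. Besides the 10, genes named were Piezo1 and Scx, up to 3 tested genes of each list by smallest edgeR p, and the 5 most like Wif1 (mean CPM of at least 5, without predicted and mitochondrial genes). Others, such as Wnt6, Wnt9a, Sost, Dkk1, Sfrp5 and Nkd1, were chosen after their values were seen. Alternatives were other scalings, filters and tools, the replicate number as a block, removal of muscle genes before scaling, the longest transcript as length and leaving out each library. A gene of the cell type marker lists is not reported here and was left out of its list. The sums of 2 other marker lists overlapped between the genotypes. Endothelial markers summed to 625 to 826 CPM in WT and 443 to 654 CPM in Piezo1 GOF, and adipocyte markers to 226 to 487 and 444 to 1134 CPM. Without Fabp4, the largest part of the adipocyte sum, the other 5 genes summed to 89.1 to 251 CPM in WT and 279 to 740 CPM in Piezo1 GOF, without overlap. All 6 adipocyte genes had positive fold changes, and of the 7 endothelial genes 6 had negative ones and 1 a positive one. Tools were edgeR 4.0.16, DESeq2 1.42.0 and limma 3.58.1 in R 4.3.3. Tables and plots were made in Python 3.11.15 (pandas 2.3.3, matplotlib 3.10.9).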

Additional observations from a re-analysis of the deposited data

How the results depend on the processing

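Over all genes, edgeR called 2 higher and 0 lower, and this count was the value most open to the processing: 0 higher with library totals only, 141 higher and 24 lower with no count filter, 511 and 371 with DESeq2, 452 and 237 with edgeR's exact test, and 97 and 19 with voom. Leaving out 1 library gave 0 to 182 higher and 0 to 46 lower, the highest without WT replicate 1 and 0 and 0 without any other. With the replicate number as a block, 0 genes were called. Deviations of libraries with the same number correlated at -0.21, -0.14 and -0.05. With 3 libraries a group this cannot tell whether the numbers pair the libraries, and the labels state no pairing. For the pathway genes, DESeq2 called 3 higher and 3 lower of 96. The exact test called 3 higher and 2 lower of 89, against 0 and 0 of 89 in the main fit. Leaving out 1 library gave 0 to 1 pathway genes higher and 0 lower, and at an unadjusted p under 0.05 it gave 5 to 19 higher and 4 to 9 lower. The fold change of Sostdc1 turned to 0.29 by voom and ran from -2.73 (without Piezo1 GOF replicate 1) to 1.75 (without WT replicate 1), that of Wnt4 from -1.77 (without WT replicate 1) to 0.31 (without WT replicate 2), and that of Znrf3 from -0.34 (without Piezo1 GOF replicate 1) to 0.022 (without Piezo1 GOF replicate 3), each against a negative value with 6 libraries. The cause was not tested. Library totals only moved the median of all genes from 0.00 to 0.10. Of 160 alternative fold changes of the 10 genes, 151 moved by less than the spread between replicates, and the 9 that moved more were all set against the tenocyte markers. With the longest transcript as length, Axin2 in WT was at 2.57 in place of 1.99 CPM per kilobase. Wnt11 rests on 33 to 78 counts per library.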

Other observations

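WT replicate 1 differed from the other 5 libraries in several Wnt pathway genes, which were picked after their values were seen. Sfrp5, a secreted Frizzled-related protein, was at 58.9 CPM there, at 1.41 and 0.905 CPM in WT replicates 2 and 3, and at 1.17, 5.02 and 11.6 CPM in Piezo1 GOF. Sostdc1 was at 28.2 CPM there and between 0.383 and 3.90 CPM elsewhere. Nkd1, a feedback inhibitor induced by beta-catenin, was at 22.2 CPM there, at 2.04 and 1.70 CPM in the other WT libraries, and at 4.74 to 8.06 CPM in Piezo1 GOF. Wnt6 was at 8.16 CPM there and at 0.226 to 1.04 CPM elsewhere. In the same library the myelin gene Mbp was at 1001 CPM, against 7.13 to 30.6 CPM in the other 5. Among the 10 genes described above, WT replicate 1 was the highest WT library for 8, and the lowest for Dkk2 and Axin2.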
